A study of Mus musculus with 8 samples.

Results

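The contacts described here are those between places of 1 chromosome that lie 2 to 10 Mb apart. Each of the 19 autosomes was divided into bins of 250 kb, and a contact of this kind is a read pair whose ends fall into bins of the same autosome 2 to 10 Mb apart. Bins with undetermined sequence, partial bins, bins of extreme coverage and bins of chromosome 15 from 55 to 72 Mb were left out, 282 of 9647 in all. The remaining 9365 bins form 288937 bin pairs at 2 to 10 Mb, out of 2458145 pairs of different bins at any distance in cis, that is, within a chromosome.

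The assay was in situ Hi-C. Crosslinked chromatin is digested by the enzyme MboI inside the nucleus, fragments that lie together are ligated, and both ends of each ligated molecule are sequenced as a read pair. The cells were splenic B cells of C57BL/6 mice, cultured with 25 µg/ml of lipopolysaccharide (LPS), a component of bacterial walls that stimulates B cells to divide. The 8 libraries form 4 groups of 2: cells at 3 h, cells at 10 h, undivided cells at 33 h (imminent division) and undivided cells at 33 h that had been sorted as not yet in S phase (pre-S). In all 4 groups activated cells were sorted as CD69+ with the brightest CellTrace Violet, a dye that is diluted at each division. The pre-S cells came from FUCCI mice, which carry fluorescent reporters of the cell cycle phase, and were gated as mAG- mKO2hi. Mouse line and gate therefore differed together with the group, and neither can be told apart from it in any comparison with pre-S. According to the methods of the study the mice were males of 6 to 12 weeks with a C57BL/6 Pep3b background. Naive, expanded and plasmablast cells were not analysed here.

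Libraries held 88703088 to 218945191 read pairs, of which 8633802 to 19815905 lay at 2 to 10 Mb, or 29.9 to 68.6 per bin pair. Replicates of a group differed by more than sampling noise, with a chi-square per bin pair of 1.145 in 3 h cells, 1.02 in 10 h cells, 1.22 in imminent division cells and 1.07 in pre-S cells, whereas a value of 1 (standard error 0.0026) would come from counting noise only. One library stood apart on the sex chromosomes. In the second imminent division library 3.74% of read ends lay on X and 0.0490% on Y, against 2.39% to 2.84% and 0.0804% to 0.123% in the other 7 libraries. Counts of chromosomes, bins and bin pairs called in comparisons with imminent division are also given without that library where it moved them by over 1.5 times, and the totals of bins and bin pairs in any case. Splits by compartment, distance or bin share, counts within gene lists and GC medians were not recomputed without it, and the part of this difference in them was not tested. The 3 comparisons that involve 10 h share its 2 libraries, and no comparison is set against another as independent evidence.

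At this range contacts mostly join loci of different topologically associating domains rather than loci of a single domain. In interphase nuclei contact frequency falls with distance roughly as a power law. Its slope on logarithmic axes is taken as a description of how compactly the chromatin fibre is folded, and chromosomes condensed for mitosis are known to gain contacts of this range. Chromatin of the A compartment is rich in active genes and meets other A chromatin more often than B chromatin, which is gene-poor and mostly silent, and the reverse holds for B.

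Ends of a Hi-C read pair lie beside sites of MboI, which cuts at GATC, and the bins begin at such sites. The 60 bases from the first cutting site of 4 bins are shown. These bins form the stronger pairs with the smallest p at imminent division and at pre-S against 10 h. Only pairs admitted by the naming rule, given with the processing below, were ranked. They are taken from the plus strand of GRCm38 (mm10), with GATC in capitals.
Acox2, Fam107a and Oit1 bin, chr14:8249760-8249819: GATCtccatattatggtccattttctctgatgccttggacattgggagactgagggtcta
Bin in the body of Fhit, chr14:10250036-10250095: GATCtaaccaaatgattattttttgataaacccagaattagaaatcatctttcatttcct
Bin in the body of Gtdc1, chr2:44500302-44500361: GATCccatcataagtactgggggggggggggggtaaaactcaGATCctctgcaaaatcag
Bin with no protein-coding gene, chr2:47250056-47250115: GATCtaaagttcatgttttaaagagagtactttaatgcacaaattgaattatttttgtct
The Gtdc1 stretch holds a second site within these bases, and each of the other stretches holds only the site at which its bin begins.

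Contacts at 2 to 10 Mb made up much the same share of all cis contacts in every group. The share was 14.07% and 14.03% in 3 h cells, 14.09% and 14.33% in 10 h cells, 14.05% and 13.72% in imminent division cells, and 14.46% and 14.82% in pre-S cells. The group means were 14.1% ± 0.027 (SD, n = 2), 14.2% ± 0.17, 13.9% ± 0.23 and 14.6% ± 0.26. Both pre-S libraries lay above the other 6, and the ranges of the remaining groups overlapped or nearly met. An exact permutation test over all ways of placing 8 libraries into 4 pairs gave p = 0.0190 and, adjusted over 5 measures, p = 0.0635, which misses 0.05. Since the smallest p this test can give is 0.00952, a pass needs nearly the most extreme grouping. With other denominators the adjusted p was 0.0476, and without 1 library it lay between 0.0476 and 0.2.

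The near constancy of this share hid opposite differences at its 2 ends. Contacts at 2 to 3 Mb were 3.17% of cis contacts in 3 h cells, 3.36% in 10 h cells, 3.53% in imminent division cells and 3.65% in pre-S cells. Contacts at 9 to 10 Mb were 1.39%, 1.36%, 1.24% and 1.29% in the same order. Outside the range, contacts at 0.25 to 2 Mb were 23.9%, 25.5%, 31.6% and 26.9% of cis contacts, and those over 10 Mb were 37.8%, 36.7%, 31.5% and 34.7%. The groups at 33 h thus differed more from each other over 0.25 to 2 Mb as a whole than at 2 to 3 Mb.

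Contact decay between 2 and 10 Mb was steeper at 10 h than at 3 h, and steeper again in both groups at 33 h. The slope of log contact density on log distance was −0.692 and −0.695 in 3 h cells, −0.749 and −0.752 in 10 h cells, −0.847 and −0.846 in imminent division cells, and −0.856 and −0.843 in pre-S cells. No 3 h or 10 h library overlapped with any other group, while the pre-S libraries lay on both sides of the imminent division pair. The exact permutation test gave p = 0.0286 over the 4 groups (adjusted p = 0.0635). Divided at 5 Mb, each side separated all 4 groups. From 2 to 5 Mb imminent division was steeper (−1.08 and −1.09) than pre-S (−1.04 and −1.02), and from 5 to 10 Mb it was shallower (−0.619 and −0.613 against −0.664 and −0.653). The exact permutation p was then 0.00952 and the adjusted p 0.0476 on either side.

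**Figure D1:**
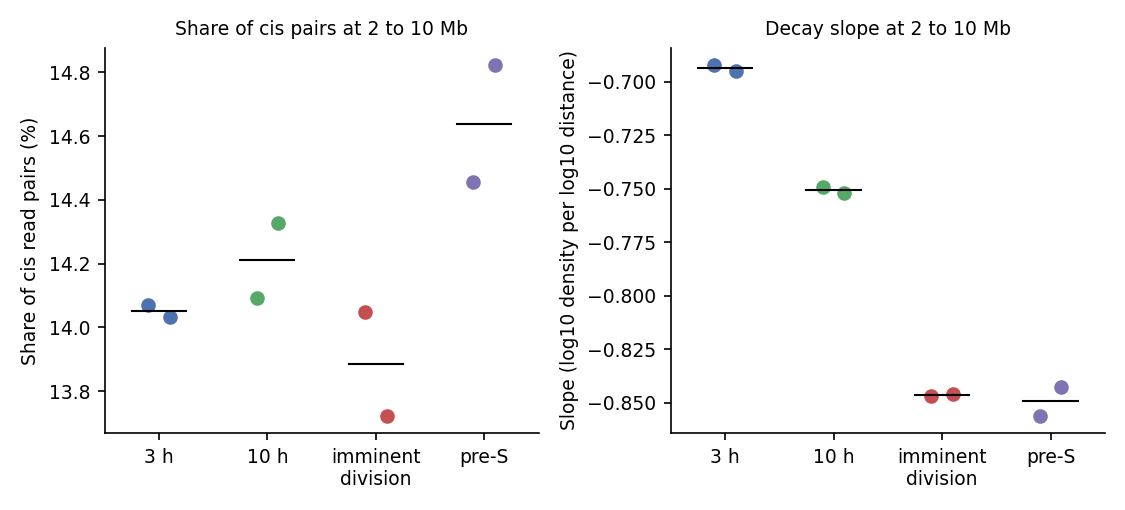
Share of cis read pairs at 2 to 10 Mb (left, percent) and slope of log10 contact density on log10 distance over the same range (right) by group. Points are libraries and lines are means of 2. The shares lie between 13.7% and 14.8% and the axis does not start at 0, while the slopes fall from about −0.69 at 3 h to about −0.85 in both groups at 33 h.

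Contact density at 2 Mb (CPM over all cis pairs, per bin pair) was 1.02 in both 3 h libraries, 1.08 and 1.1 in 10 h cells, 1.19 and 1.17 in imminent division cells, and 1.19 and 1.2 in pre-S cells. At 10 Mb it was 0.320 and 0.317 in 3 h cells, 0.307 and 0.313 in 10 h cells, 0.287 and 0.280 in imminent division cells, and 0.288 and 0.301 in pre-S cells. The groups at 33 h were thus alike at the near end and lower than 3 h and 10 h at the far end.

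**Figure D2:**
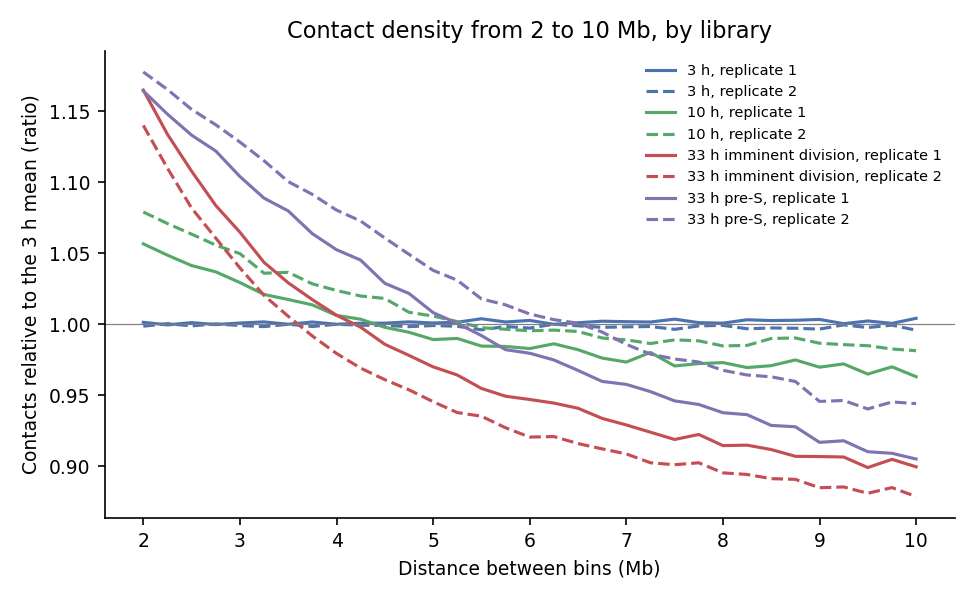
Contact density at each distance from 2 to 10 Mb, divided by the mean of the 3 h libraries, with 1 line per library. Both imminent division lines drop below the 3 h level between 3 and 5 Mb, and both pre-S lines do so between 5 and 7 Mb.

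Chromosome by chromosome, the steeper decay was general. Slopes were tested with limma on 8 libraries for the 19 autosomes, which share those libraries and so are not independent of each other. Against 3 h, the slope fell on 19 of 19 chromosomes at 10 h (100% called). It fell further on 19 of 19 at imminent division against 10 h (100%) and on 19 of 19 at pre-S against 10 h (100%). These counts did not change with any library left out, with balanced matrices or with the replicate block. Chromosome 11, a gene-dense chromosome, had the shallowest decay in every group, from −0.546 at 3 h to −0.753 at pre-S. Its fall of 0.09 between 3 h and 10 h was the largest of the 19, and that of chromosome 18 (−0.04) the smallest. Chromosome 9 fell most at 33 h, with a difference of −0.13 at imminent division and −0.14 at pre-S against 10 h (adjusted p 5.5e-30 and 1.6e-32, limma). Limma gave the highest and the lowest chromosome of each comparison the same standard error (0.0067), pooled over chromosomes that share 8 libraries. These p values therefore rest on replicate variation pooled over chromosomes, not on that of the single chromosome. They do not replace the exact permutation test above, which takes each library as 1 value. Chromosome 15, apart from the segment left out, had the steepest decay at 3 h (−0.865), 10 h (−0.920) and imminent division (−1.003), but chromosome 10 had it at pre-S (−0.981). At 33 h, between both groups the slope differed on 8 of 19 chromosomes (42.1%), being shallower at imminent division on 5 and steeper on 3. Chromosome 11 was the most shallow by comparison (0.03) and chromosome 15 the steepest (−0.05). Without the first imminent division library 3 were called. The split was 4 shallower and 7 steeper without the first pre-S library and 9 and 3 without the second.

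Shares of single chromosomes separated the groups at 33 h. Tested with edgeR against all cis pairs of the chromosome, the share did not differ on any of 19 between 10 h and 3 h (0%), and none had an unadjusted p under 0.05. It fell at imminent division against 10 h on 6 of 19 (31.6%), which were chromosomes 13, 15, 16, 17, 18 and 19. The largest difference was on chromosome 19 (log2 −0.13, standard error 0.023, adjusted p 4.7e-06). It rose at pre-S against 10 h on 3 of 19 (15.8%), which were chromosomes 7, 12 and 16, with the largest difference on chromosome 7 (log2 0.07). Imminent division was below pre-S on 19 of 19 (100%), by log2 −0.05 on chromosome 5 to −0.13 on chromosome 15. The edgeR fit shared 1 dispersion over the 19 chromosomes, which share 8 libraries, so these calls are not independent of each other. Their p values do not replace the exact permutation test of the share per library, given above, which did not pass after adjustment. The counts of chromosomes called also rest on few libraries. Without the second imminent division library, imminent division against 10 h gave 2 and imminent division against pre-S gave 6. The former fell to 1 when the second 10 h library was dropped, and the latter to 6 when the second pre-S library was. The count at pre-S against 10 h was 13 without the first pre-S library and 0 without either 3 h library, either 10 h library or the second pre-S library, and 0 also with the replicate number as a block. In level, chromosome 2 had the lowest share in every group (12.6% to 13.1%), and chromosome 13 the highest at 10 h (16.4%), imminent division (15.5%) and pre-S (16.8%), while at 3 h it was chromosome 19 (16.4%).

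**Figure D3:**
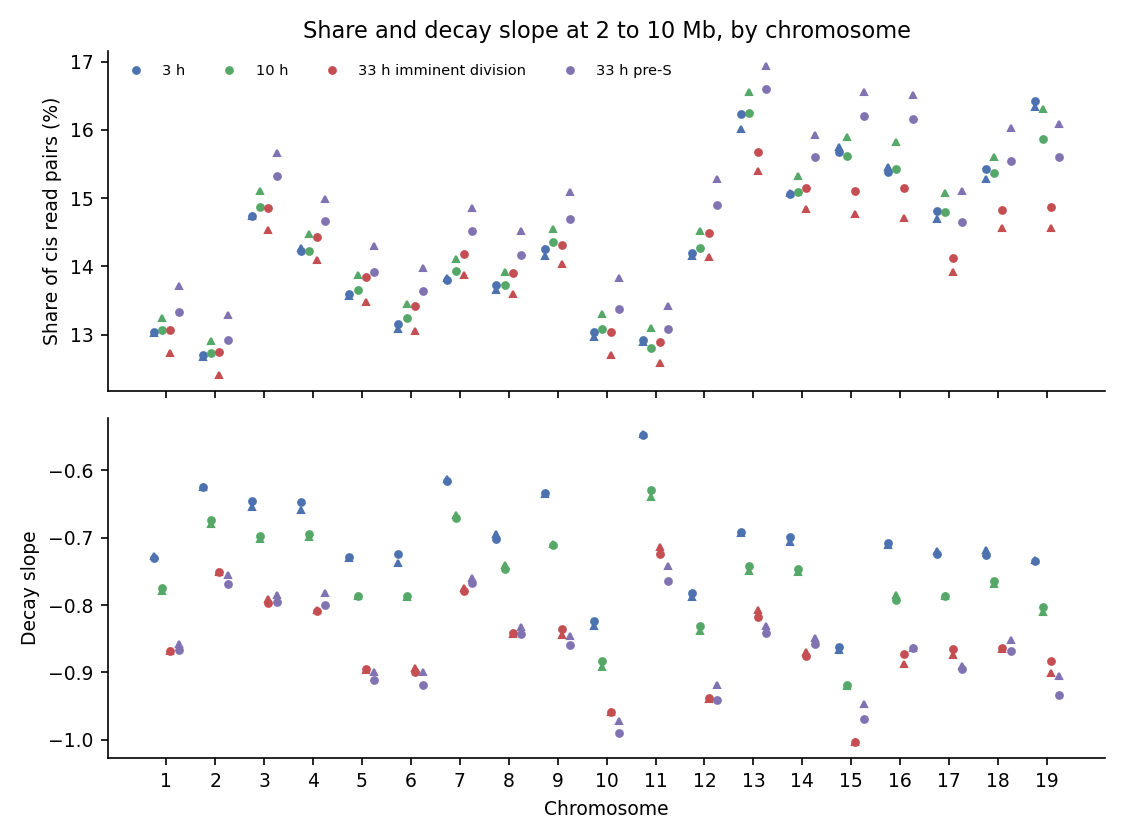
Share of cis read pairs (percent, upper panel) and decay slope (log10 density per log10 distance, lower panel) at 2 to 10 Mb for the 19 autosomes. Each point is a library, with a circle for replicate 1 and a triangle for replicate 2. Slopes at 3 h lie above those of every later group on each chromosome, and chromosome 11 has the shallowest slope throughout.

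Compartments were read from the first principal component of contacts more than 10 Mb apart, with the libraries weighted equally, so the contacts at 2 to 10 Mb played no part in them. On each of the 19 chromosomes the side with more gene starts was called A, and 47.5% of bins were A. Of the pairs at 2 to 10 Mb, 70253 were A–A, 132634 A–B and 86050 B–B.

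As deposited, contacts among A bins were weaker and contacts among B bins stronger in pre-S cells than in the other groups. A–A contact, as log2 of observed over expected at each distance, was 0.65 and 0.56 in 3 h cells, 0.60 and 0.58 in 10 h cells, 0.44 and 0.55 in imminent division cells, and 0.38 and 0.39 in pre-S cells. B–B contact was 0.21 and 0.32, 0.29 and 0.29, 0.37 and 0.28, and 0.48 and 0.44 in the same order. A–B contact was −0.80 and −0.81, −0.83 and −0.81, −0.73 and −0.75, and −0.83 and −0.78. The pre-S pair was lowest for A–A and highest for B–B, and the imminent division pair was highest for A–B. Over the 4 groups none passed the exact permutation test after adjustment (A–A p = 0.0381, adjusted 0.0635; B–B p = 0.114, adjusted 0.124; A–B p = 0.124, adjusted 0.124). In contact density, A–A pairs at pre-S held 0.892 times and B–B pairs 1.17 times the CPM per bin pair at 10 h. At imminent division A–A pairs held 0.915 times and B–B pairs 1.01 times those at 10 h.

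Coverage of A bins moved with these values. The share of interchromosomal read ends in A bins was 61.1% and 59.0% in 3 h cells, 58.8% and 58.6% in 10 h cells, 57.5% and 60.1% in imminent division cells, and 54.5% and 55.1% in pre-S cells. Balancing gave the bins of a chromosome equal sums of cis contacts with other bins, and did not use these interchromosomal read ends. In balanced matrices the order was another. Balanced A–A contact was 0.34 in all 4 libraries at 3 h and 10 h, 0.29 and 0.30 in imminent division cells, and 0.32 and 0.30 in pre-S cells, and the lower values at 33 h then passed the test (adjusted exact permutation p = 0.0357). Balanced B–B contact was 0.55 and 0.55, 0.56 and 0.55, 0.52 and 0.53, and 0.55 and 0.53, so its mean at 33 h lay below that at 3 h, the reverse of the unbalanced order (adjusted exact permutation p = 0.114). Balanced A–B contact was −0.90 and −0.90, −0.92 and −0.89, −0.79 and −0.82, and −0.89 and −0.83. It was highest at imminent division with or without balancing, and after balancing it passed the test (adjusted exact permutation p = 0.0357).

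**Figure D4:**
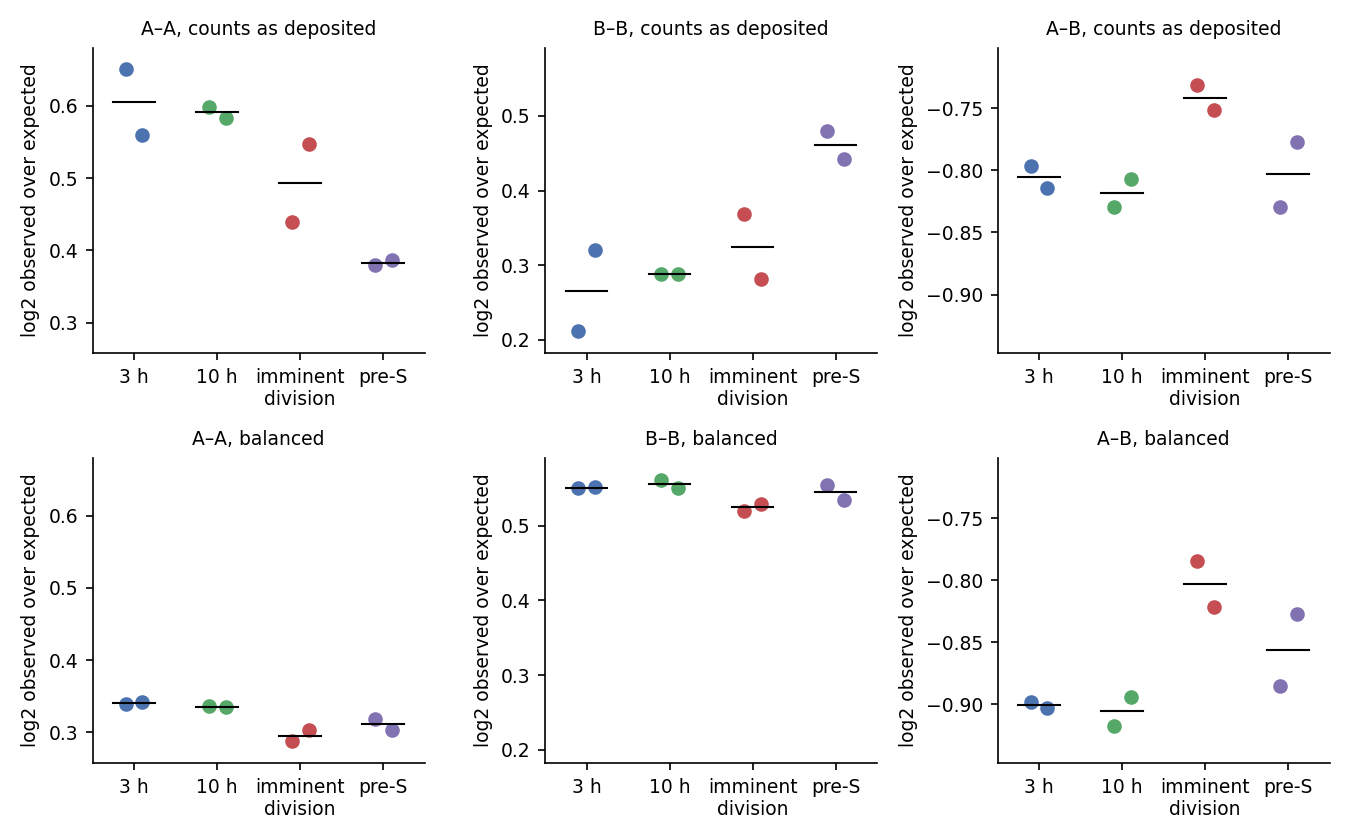
Mean A–A, B–B and A–B contact at 2 to 10 Mb as log2 of observed over expected, from the counts as deposited (upper row) and from balanced matrices (lower row). Points are libraries and lines are means of 2, and panels of 1 column share a scale. The pre-S separation in A–A and B–B is seen in the upper row and not in the lower, while imminent division has the highest A–B contact in both.

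As with the slopes, limma used a standard error pooled over chromosomes (0.053 for A–A and 0.051 for B–B contact). On single chromosomes A–A contact did not differ between 10 h and 3 h on any of 19 (0%, none at an unadjusted p under 0.05, limma). It was lower at imminent division than at 10 h on 8 of 19 (42.1%), namely chromosomes 2, 4, 5, 6, 8, 15, 16 and 17, but on 1 with the replicate number as a block. It was lower at pre-S than at 10 h on 18 of 19 (94.7%), with chromosome 19 as the exception. Between the groups at 33 h it passed on 0 of 19 (0%), though 10 had an unadjusted p under 0.05. B–B contact passed on 0 of 19 at 10 h against 3 h (0%) and on 0 of 19 at imminent division against 10 h (0%), with none under an unadjusted p of 0.05 in either. It was higher at pre-S than at 10 h on 18 of 19 (94.7%), again with the exception of chromosome 19, and lower at imminent division than at pre-S on 14 of 19 (73.7%). Balancing left 16 of 19 for A–A at pre-S against 10 h, 15 lower and 1 higher, but turned B–B to 7, of which 6 were lower. B–B contact at imminent division against 10 h was lower on 12 after balancing, where none passed before. At 33 h, balancing gave for the comparison of both groups 8 for B–B and 6 for A–A, all lower at imminent division. For A–A at imminent division against 10 h balancing gave 16, of which 15 were lower. From the counts as deposited it was 0 when the first library of either group was dropped, 1 for the second 10 h library or either pre-S library, and 13 for the second imminent division library. The A–A count between the groups at 33 h was 9 without either 3 h library and 18 without the first imminent division library. The B–B count at pre-S against 10 h was 8 when the second 10 h library was dropped and 7 when the first pre-S library was, and the B–B count between the groups at 33 h was 0 without the second imminent division or the first pre-S library.

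The decay slope differed between compartments, and at imminent division it did so in the opposite sense to pre-S. For A–A pairs the slope was −0.609 and −0.604 in 3 h cells, −0.671 and −0.679 in 10 h cells, −0.715 and −0.718 in imminent division cells, and −0.774 and −0.764 in pre-S cells. A–A decay was thus steepest at pre-S. For B–B pairs it was −0.615 and −0.623, −0.658 and −0.654, −0.809 and −0.806, and −0.755 and −0.744, steepest at imminent division. For A–B pairs the means were −0.769, −0.837, −0.932 and −0.961 in the order of the groups. In each of the 3 classes all 4 groups were apart (exact permutation p = 0.00952, the smallest possible, adjusted p = 0.0127 over 4 slope measures). The slope of B–B minus that of A–A pairs was −0.01 and −0.02 in 3 h cells, 0.01 and 0.03 in 10 h cells, −0.09 and −0.09 in imminent division cells, and 0.02 and 0.02 in pre-S cells (exact permutation p = 0.0286, adjusted p = 0.0286). Imminent division stood apart from the other 6 libraries, and 10 h and pre-S overlapped. The class slopes were examined after the data had been seen. With the most extreme 20% of bins on either side as A and B, the A–B slopes of 10 h (−0.869 and −0.904) and imminent division (−0.891 and −0.901) overlapped, and the A–B test gave an adjusted exact permutation p of 0.0286. They passed with balanced matrices and without any 1 library (adjusted exact permutation p 0.00952 to 0.0286), and did not pass with the replicate number as a block (adjusted exact permutation p 0.0556 to 0.0833, where the smallest possible p is 0.0417).

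**Figure D5:**
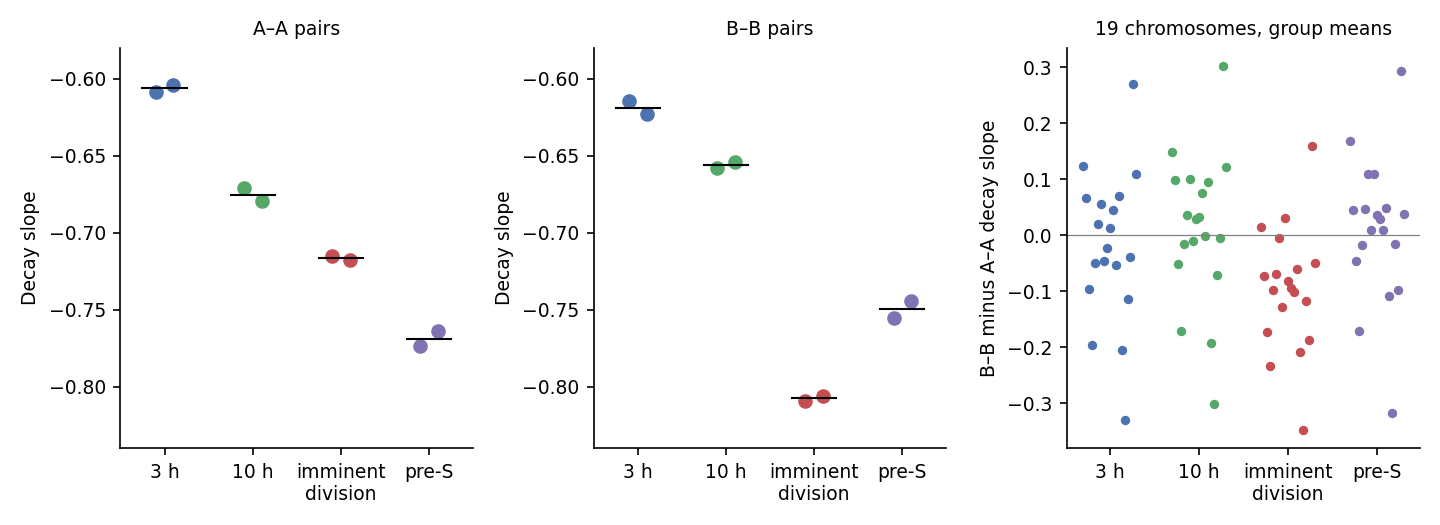
Decay slope (log10 density per log10 distance) from 2 to 10 Mb for A–A pairs (left) and B–B pairs (middle), with libraries as points and means of 2 as lines, and the slope of B–B minus A–A pairs for each of the 19 chromosomes as group means (right). A–A decay is steepest at pre-S, B–B decay is steepest at imminent division, and most imminent division chromosomes lie below 0.

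Within chromosomes the pattern was shared but its starting level was not. B–B decay was steeper than A–A decay on 10 of 19 chromosomes in both 3 h libraries, on 9 and 7 in 10 h cells, on 16 and 16 in imminent division cells, and on 7 and 7 in pre-S cells. With limma the difference was lower at imminent division than at 10 h on 17 of 19 chromosomes (89.5%), with chromosomes 9 and 14 as exceptions, and lower than at pre-S on 19 of 19 (100%), by −0.03 on chromosome 15 to −0.15 on chromosome 1. It was higher at 10 h than at 3 h on 16 of 19 (84.2%), and on 8 without the second library of either group. For pre-S against 10 h it differed on 8 of 19 (42.1%), with 3 higher and 5 lower, and on 13 after balancing, with 9 higher and 4 lower. Chromosome 15 had the lowest difference in every group (−0.330, −0.302, −0.348 and −0.317), and chromosome 18 the highest (0.271, 0.302, 0.160 and 0.293), so chromosomes differed from each other by more than groups did. The component that set A and B correlated with gene starts at 0.663 on chromosome 15 and at 0.319 on chromosome 18. The part of this in the difference between chromosomes was not tested.

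Single bin pairs were tested with edgeR, over 1518604 cis pairs at any distance that passed a filter on mean abundance over all 8 libraries. The filter was passed by 247675 of the 287908 pairs at 2 to 10 Mb with at least 10 read pairs. Of the 40233 that failed, 39052 were A–B pairs, so the calls say little about the weakest A–B contacts. Stronger and weaker are relative to offsets that set the typical pair of a given abundance near no change.

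Between 3 h and 10 h few pairs differed, 132 of the 247675 at 2 to 10 Mb, or 0.0533%, against 0.0481% of pairs at any distance. Of these, 90 were stronger (background 0.0344%) and 42 weaker (background 0.0138%). Leaving out the second 3 h library reduced this to 11, with 4 stronger and 7 weaker, and leaving out the first or the second 10 h library to 35 or 4. For imminent division against 10 h, 31228 pairs changed, or 12.6%, against 6.96% at any distance. There were 22332 stronger pairs, 9.02% against 3.48%, and 8896 weaker pairs, 3.59% against a background also of 3.48%. At pre-S against 10 h, 19146 changed, or 7.73%, against 3.94% at any distance. Of them 13398 were stronger, 5.41% against 1.92%, and 5748 weaker, 2.32% against 2.02%. At 33 h, between both groups, 6287 pairs differed, or 2.54%, against 1.64% at any distance. Of these, 3344 were stronger and 2943 weaker at imminent division, where the background was 0.82% in either direction. In every comparison the background consists mostly of pairs over 10 Mb apart, 1207037 of the 1518604 tested. At 10 h against 3 h, 0.0075% of those far pairs were called, and 0.795% of the 63892 pairs under 2 Mb apart. A share above the background therefore does not set 2 to 10 Mb apart from nearer pairs.

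The excess of stronger pairs depends on the offsets. The share of stronger pairs among those called at imminent division against 10 h was 71.5%, but the calls were 12776 stronger and 19165 weaker with the cis total as the only scaling. It was 42.5% when each distance was centred on its median and 59.2% with DESeq2. For pre-S against 10 h it was 70.0%, but 57.1% with the cis total, 38.5% with centring and 56.9% with bin coverage (interchromosomal read ends of both bins) in the offsets. Between 3 h and 10 h it was 68.2%, and 78.8% with TMM factors, 57.3% with centring and 90.5% with DESeq2. Between the groups at 33 h it was 53.2%, and 21.4% with the cis total, 68.0% with bin coverage and 33.7% with DESeq2. Counts also depend on single libraries. At imminent division against 10 h, 14450, 10865 and 15973 pairs were called without the first or second 10 h or the first imminent division library, and 23557 without the second imminent division library. At pre-S against 10 h there were 6423 and 4802 without either 10 h library and 3731 and 7522 without either pre-S library. There were 1939 between the groups at 33 h when the second imminent division library was dropped, and 657 or 1555 when the first or second pre-S library was. The direction of the majority there also rests on single libraries, with 2160 stronger and 2897 weaker without the first imminent division library, 1331 and 608 without the second, and 292 and 365 without the first pre-S library.

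Pairs called stronger were more frequent at the near end of the range than at its far end. Near pairs also held more reads, with 1.19 and 1.17 CPM per bin pair at 2 Mb in imminent division cells. At 10 Mb these were 0.287 and 0.280, and the part of read depth in the shares of calls was not tested. For imminent division against 10 h, 22.9% of pairs at 2 to 3 Mb were stronger and 5.36% weaker, and at 9 to 10 Mb 3.35% were stronger and 3.00% weaker. Of B–B pairs at 2 to 3 Mb, 29.1% were stronger, of A–B pairs 26.6% and of A–A pairs 10.5%, while 13.8% of A–A pairs there were weaker. For pre-S against 10 h, 11.4% of pairs at 2 to 3 Mb were stronger, with 22.7% of B–B, 8.31% of A–B and 1.90% of A–A pairs, while 8.98% of A–A pairs were weaker. At 9 to 10 Mb 1.72% were stronger and 2.38% weaker. With bin coverage in the offsets, B–B calls from 2 to 4.75 Mb at pre-S turned from 6207 stronger and 86 weaker to 513 and 1692. A–B calls from 2 to 4.75 Mb at pre-S were 2236 stronger and 387 weaker with the offsets of the test. With centring at each distance, the calls of all classes at pre-S over the whole range were 5584 stronger and 8922 weaker.

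At imminent division against 10 h, stronger calls outnumbered weaker ones over all classes, 22332 against 8896 of 247675. By compartment, A–B pairs were stronger in 10050 and weaker in 2226 of 92553. B–B pairs were stronger in 7338 and weaker in 1063 of 85970, and A–A pairs were stronger in 4944 and weaker in 5607 of 69152. A–B, B–B and A–A pairs made up 37.4%, 34.7% and 27.9% of the pairs tested. They were 45.0%, 32.9% and 22.1% of the stronger pairs, and 25.0%, 11.9% and 63.0% of the weaker pairs. With the cis total alone A–B pairs were 5949 stronger and 5658 weaker, B–B pairs 4033 and 3141, and A–A pairs 2794 and 10366. Centring at each distance gave 2574 and 7972 for A–A pairs, so that their near balance turned to an excess of weaker pairs with either scaling. From 5 to 10 Mb the B–B calls turned from 1603 stronger and 639 weaker to 411 and 2308 with the cis total, and to 547 and 776 with centring at each distance. At pre-S against 10 h, 13398 pairs of all classes were stronger and 5748 weaker. Among them, 9836 B–B pairs were stronger and 256 weaker, and 555 A–A pairs were stronger and 4342 weaker. With bin coverage in the offsets these turned to 795 and 2985 for B–B and 2701 and 1524 for A–A. At 33 h, between both groups, 3344 pairs of all classes were stronger and 2943 weaker at imminent division. Among them, 341 B–B pairs were stronger and 2068 weaker, and 1713 A–A pairs were stronger and 261 weaker. With bin coverage these became 7744 and 394 for B–B and 548 and 3204 for A–A. The majority of A–A and B–B calls that involve pre-S thus turned direction once bin coverage entered the offsets. Balancing, applied to chromosomes as given above, did not turn all of them. It turned B–B contact at pre-S against 10 h on most chromosomes called. It kept the unbalanced direction for A–A contact at pre-S against 10 h on most, and for B–B contact between the groups at 33 h. A–B calls at imminent division against 10 h were mostly stronger with TMM factors (10055 and 2500) and bin coverage (13576 and 2828), and less so with centring at each distance (4814 and 3860). From 5 to 10 Mb, however, they turned from 2951 stronger and 1266 weaker to 1468 and 3550 with the cis total, and to 1674 and 1857 with centring. A–A calls at imminent division over the whole range turned to 5803 stronger and 4821 weaker with TMM factors.

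Sequence content differed along the same lines, for calls with the offsets of the test. It was not recomputed with bin coverage in the offsets, where the majority of A–A and B–B calls at pre-S turned direction. The median GC share of the ends of weaker pairs at pre-S against 10 h was 46.2%, with a median of 3 gene starts per end, and that of stronger pairs was 37.9%, with 0 gene starts. All tested pairs had 41.4% and 1. At imminent division against 10 h the values were 45.3% and 2 for weaker and 40.01% and 1 for stronger pairs.

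Among pairs that rose by 10 h and that the naming rule admits, the first by p joined 2 bins of chromosome 2. These were a bin in the body of Arhgap15 at chr2:44249812-44500305 and a bin without a protein-coding gene at chr2:47250056-47499946. Its read pairs, scaled by the offsets of the test, were 86.8 and 90.6 in 3 h cells, 170.1 and 172 in 10 h cells, 215.2 and 218.6 in imminent division cells, and 338.9 and 358.4 in pre-S cells. All 4 groups were apart, which the rule for naming pairs demands only of 3 h and 10 h, with about 4 times as many read pairs at pre-S as at 3 h. The log2 difference of 10 h and 3 h was 0.94 (adjusted p 4.1e-05, edgeR). The second joined Nfkb1, which encodes the p50 subunit of NF-κB, at chr3:135499703-135750163 with Ddit4l and Gm21962 at chr3:137499823-137750351. Its scaled read pairs were 106.2 and 74.3 at 3 h and 163 and 166.4 at 10 h, and lay between 200.8 and 218.1 in the 4 libraries at 33 h (log2 0.94 for 10 h against 3 h, adjusted p 5.6e-05, edgeR). Of the 3 weaker pairs named by the rule, that of Cpped1 and Shisa9 with Klhl24, Yeats2 and Map6d1 on chromosome 16 had 70 and 42.2 at 3 h and 22.1 and 16.7 at 10 h (log2 −1.44, adjusted p 0.00094, edgeR). None of the 6 pairs named for this comparison passed without every single library in turn, with a largest adjusted p of 0.535.

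At imminent division the smallest p among pairs admitted by the naming rule was that of the bin of Acox2, a peroxisomal oxidase of bile acid intermediates, with Fam107a and Oit1 at chr14:8249760-8500396 and a bin in the body of Fhit at chr14:10250036-10499715, whose first bases are given above. The scaled read pairs were 86.7 and 97.8 in 3 h cells, 95.9 and 80.1 in 10 h cells, 236 and 278.3 in imminent division cells, and 138.7 and 132.5 in pre-S cells. Both groups at 33 h lay above 3 h and 10 h, and imminent division was well above pre-S. It was 2.96 times as strong as at 10 h (log2 1.57, standard error 0.13, adjusted p 2.5e-24, edgeR). The neighbouring pair, with the next bin of Fhit, also led the stronger pairs of imminent division against pre-S (239 and 277.3 against 115.8 and 119.3, log2 1.1404, adjusted p 1.6e-12).

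The second was the contact of 3.75 Mb between the bin of the deacetylase gene Sirt1 to Ctnna3 and that of Jmjd1c and Reep3 on chromosome 10. Its scaled read pairs were 100.7 and 107.3 in 10 h cells, 245 and 281.5 in imminent division cells and 153.9 and 141 in pre-S cells (log2 1.34 for imminent division against 10 h). The third, on chromosome 11, joined a bin without a gene at chr11:26999890-27250081 with Pnpt1, Ppp4r3b and Cfap36 (47.8 and 45.8 at 10 h, 157.5 and 139.4 at imminent division, log2 1.66). Weaker pairs named by the rule were led by Rab11a, a GTPase of recycling endosomes, with the tropomyosin gene Tpm1 on chromosome 9. They had 235.1 and 280.4 scaled read pairs in 10 h cells, 89.9 and 111.9 in imminent division cells and 128.5 and 154.7 in pre-S cells (log2 −1.35, adjusted p 1.1e-20, edgeR). Next came Tbc1d7 with Dtnbp1 and Gm9817 on chromosome 13 (log2 −0.98), and Etv3, Arhgef11 and Lrrc71 with Chtop to Pglyrp4 on chromosome 3 (log2 −1.52). All 6 passed without any single library (largest adjusted p 1.9e-07).

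Against 10 h, pre-S again involved the gene-free bin of chromosome 2, now with the bin in the body of Gtdc1 at chr2:44500302-44750015, both shown above by their first bases. The scaled read pairs were 60.1 and 57.9 in 3 h cells, 95.1 and 125.9 in 10 h cells, 186.8 and 206 in imminent division cells, and 268.7 and 273.7 in pre-S cells. No groups overlapped, which the rule for naming pairs demands only of pre-S and 10 h, and pre-S was highest (log2 1.27 against 10 h, adjusted p 1.2e-14, edgeR). Further stronger pairs were a bin without a gene with the protocadherin gene Pcdh9 on chromosome 14 (55.9 and 58.1 at 10 h, 141.2 and 146.6 at pre-S, log2 1.33), and the nuclear export gene Xpo1 with Usp34 and Ahsa2 and a gene-free bin on chromosome 11 (log2 1.21). With bin coverage in the offsets the Pcdh9 pair was at log2 0.54 and no longer passed (adjusted p 0.055). The weaker pairs were between gene-bearing A bins. They were Gsg1l and Xpo6 with Trim72 to Tgfb1i1 on chromosome 7 (311.2 and 321.5 at 10 h, 159.5 and 158.6 at pre-S, log2 −0.99), Ppp1r26 to Gbgt1 with Ndufa8 to Ptgs1 on chromosome 2 (log2 −1.78), and Sdr42e1 and Hsd17b2 with Pgbd5 on chromosome 8 (log2 −1.75).

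Between the groups at 33 h, imminent division was stronger for Rnf144a, Rsad2 and Cmpk2 with Dcdc2c to Adi1 on chromosome 12, with 244.6 and 265.1 scaled read pairs against 125.7 and 109.5 at pre-S (log2 1.11). Rsad2 and Cmpk2 are neighbouring genes induced by interferon. It was also stronger for Gatm to Bloc1s6 with a bin in the body of Sema6d on chromosome 2 (log2 0.95). Weaker were a further bin of Arhgap15 with the gene-free bin of chromosome 2 (165.1 and 170 against 341.5 and 278.7, log2 −0.89), Nudt7 and Vat1l with Cmc2 to Gcsh on chromosome 8 (log2 −0.98), and a gene-free bin with the angiotensin receptor gene Agtr1a on chromosome 13 (log2 −1.12). All 12 pairs of the comparisons of pre-S with either group passed without any single library, with a largest adjusted p of 0.0034 and 0.0048.

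For each bin, the share of its cis contacts that reached 2 to 10 Mb was tested as well. The median bin share was 15.9% to 16.95% over the libraries, with 14.2% to 15.2% in A bins and 17.4% to 18.6% in B bins. Of 9291 bins tested, 937 changed from 3 h to 10 h (10.1%), 644 upward (6.93%) and 293 downward (3.15%). The counts were 421 up and 159 down without the first 3 h library, 183 and 107 without the second of them, and 202 and 166 without the second 10 h library. Of 532 bins called without the first 10 h library, 427 were up. For imminent division against 10 h, 5146 changed (55.4%), 1445 upward (15.6%) and 3701 downward (39.8%). For pre-S against 10 h, 3495 changed (37.6%), 2353 upward (25.3%) and 1142 downward (12.3%). Dropping the second 10 h library changed this split to 1811 up and 646 down. Dropping the first pre-S library gave 2137 and 522, and dropping the second gave 1531 and 1225. Between the groups at 33 h, 4901 differed (52.7%), with 611 higher (6.58%) and 4290 lower (46.2%) at imminent division. Without the second imminent division library 4520 bins were called against 10 h and 4008 against pre-S. The number higher than at pre-S was 399 without the first imminent division library and 254 when the first pre-S library was dropped. These directions include a shift of the whole genome, with a median log2 difference of 0.01, −0.04, 0.02 and −0.06 in the order given. With that median taken off, the calls were 541 up and 547 down, 2704 and 2488, 2133 and 1679, and 1905 and 2166.

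Bins poor in contacts at this range gained most. There were 167 bins with a share under 6% at 3 h, of which 159 were A. At imminent division against 10 h the share rose in 125 (74.9%) and fell in 4, beside 15.6% and 39.8% of all bins. The median log2 difference was 0.30, and 0.34 with the median change of all bins taken off. At pre-S against 10 h the share rose in 103 (61.7%) and fell in 0, beside 25.3% and 12.3% of all bins. In the 1984 bins with a share of 20% or more at 3 h, it rose in 4.69% and fell in 59.7% at imminent division against 10 h. It was lower at imminent division than at pre-S in 71.2%, beside 46.2% of all bins. With the median change of all bins taken off, the median log2 difference of these 1984 bins went from −0.083 to −0.037 against 10 h. Against pre-S it went from −0.101 to −0.041. For pre-S against 10 h, 23.7% of them rose and 12.95% fell, near the shares of all bins. The 3 h libraries that chose these bins are on neither side of these comparisons, though they add to the variation estimated in the fit. Compartment, gene starts, GC share and repeat share were weakly related to the signed change (Pearson correlation across 9291 bins −0.15 to 0.09 over the 4 comparisons). Such a correlation misses a class that changes more in both directions. At 10 h against 3 h 9.94% of A bins rose and 6.18% fell, against 4.23% and 0.429% of B bins. At imminent division against 10 h these were 20.4% and 44.7% against 11.2% and 35.5%. Both shares were higher in A bins in the other comparisons too. Neighbouring bins share reads and are not independent.

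Among 18 genes that regulate B cell identity and plasma cell differentiation, all in A bins, the bin share rose at imminent division against 10 h in 10 and fell in 2, where all bins rose in 15.6% and fell in 39.8%. The median log2 difference was 0.16 in these bins and −0.04 in all. In pre-S cells it rose against 10 h in 9 and fell in 1 (median 0.19), beside 25.3% and 12.3% of all bins. Between 3 h and 10 h it rose in 4 and fell in 0, beside 6.93% and 3.15%. At 33 h, 6 were higher and 6 lower at imminent division than at pre-S, beside 6.58% and 46.2%. The bin of Pax5, which maintains B cell identity, had 5.50% and 5.55% of its cis contacts in the range in 3 h cells, 5.01% and 5.23% in 10 h cells, 7.17% and 6.85% in imminent division cells, and 5.52% and 5.81% in pre-S cells. It was higher at imminent division than in the other groups (log2 0.45 against 10 h, adjusted p 2.5e-10, edgeR). Ebf1, an early B lineage factor, rose by log2 0.46 at imminent division, from 5.14% and 5.05% at 10 h to 7.36% and 6.71%. Bach2, which represses plasma cell fate, rose by 0.48, from 4.80% and 5.002% to 6.98% and 6.71%. Foxo1, a target of PI3K signalling, rose by 0.56, from 2.76% and 3.34% to 4.81% and 4.30%. Xbp1, a factor of the secretory programme, rose by 0.67, from 1.301% and 1.46% to 2.32% and 2.10%. Ikzf1, which encodes Ikaros, rose by 0.44, from 12.3% and 13.2% to 18.1% and 16.8%. Among bins that rose and that the naming rule admits, it had the smallest p. Ikzf3 (0.25), Spi1 (0.30), Tcf3 (0.28) and Irf4 (0.08) were the others that rose. Bcl6, the germinal centre repressor, fell by 0.23 on the log2 scale, from 16.6% and 16.4% to 14.4% and 13.8%, and Ell2 fell by 0.15. Spib rose by 0.35 at pre-S, from 4.83% and 5.23% to 6.25% and 6.57%, but was at log2 0.04 at imminent division against 10 h (adjusted p 0.59). Prdm1, which drives plasma cell differentiation, did not pass in the comparisons with 10 h (log2 −0.07 at imminent division, adjusted p 0.077, and 0.02 at pre-S, adjusted p 0.76). Of the 18 bins, 7 lay among the 167 with a share under 6% at 3 h, and 6 of these 7 rose at imminent division, near the 74.9% of all such bins. Without 1 library Irf4 and Ell2 no longer passed at imminent division (largest adjusted p 0.12 and 0.43).

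Genes of S phase and mitosis were counted in the same way. Of 22, the bin share rose at imminent division against 10 h in 7 and fell in 9, beside 15.6% and 39.8% of all bins. In pre-S cells against 10 h it rose in 6 and fell in 2, near the 25.3% and 12.3% of all bins. Mcm4, a subunit of the replicative helicase, fell by 0.29 on the log2 scale at imminent division, from 21.1% and 20.9% to 16.9% and 17.4%, while Mcm3, of the same helicase, rose by 0.20, from 14.2% and 13.3% to 15.997% and 15.4%. Of these 16 calls, those of Ccne1, E2f7, Aurka, Aurkb and Bub1 did not pass without every single library. The cyclin gene Ccne2 rose by 0.24 and Ccna2 fell by 0.16. The sliding clamp gene Pcna fell by 0.15 and E2f1 by 0.18. Olfactory receptor genes, which are silent in B cells, lie in 173 tested bins, of which 64 were A. The share there rose in 9 and fell in 82 at imminent division against 10 h, with 5.20% up and 47.4% down beside 15.6% and 39.8% of all bins. For pre-S against 10 h it rose in 41 and fell in 29 of the 173, near the 25.3% and 12.3% of all bins. With the median change of all bins taken off, the counts at imminent division were 32 up and 58 down of the 173. Of all 9291 bins, 2704 were then up and 2488 down.

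Of bins admitted by the naming rule, the one with the smallest p between 3 h and 10 h held Rel, which encodes the c-Rel subunit of NF-κB, and Papolg, at chr11:23750729-23999445. Its share was 13.01% and 12.8% in 3 h cells, 15.9% and 16.5% in 10 h cells, 14.9% and 14.8% in imminent division cells, and 18.3% and 18.2% in pre-S cells. It rose by 10 h (log2 0.33, adjusted p 3.4e-15, edgeR) and was lower at imminent division than at 10 h and at pre-S. The bin of the centrin gene Cetn3 on chromosome 13 followed the same order (26.4% and 25.7%, 30.2% and 30.4%, 27.4% and 27.2%, 33.4% and 34.2%), and was among the 3 bins named as lower at imminent division than at pre-S (log2 −0.31). The bin in the body of Arhgap15 rose too (17.9% and 17.6% at 3 h, 20.8% and 20.8% at 10 h, log2 0.23). Those that fell by 10 h held Pdgfb to AC140267.1 on chromosome 15 (15.4% and 15.6% to 12.3% and 12.3%, log2 −0.34), the inhibitory receptor gene Tigit on chromosome 16 (log2 −0.30) and Herc1 on chromosome 9 (log2 −0.26).

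At imminent division against 10 h the others that rose were the Sirt1 to Ctnna3 bin (13.6% and 13.6% to 17.2% and 17.2%, log2 0.34) and the bin of Mzt1 to Dis3 on chromosome 14 (log2 0.35). Of the bins named as lower, the share fell most clearly in that of Glp1r and Umodl1 on chromosome 17, from 23.3% and 23.4% at 10 h to 16.1% and 16.5%, with 21.1% and 22.1% at pre-S (log2 −0.52, adjusted p 1.2e-32, edgeR). It fell likewise in that of Tprg on chromosome 16 (log2 −0.42) and in a gene-free bin at chr3:137001047-137250015 (log2 −0.49). At pre-S against 10 h it rose in the Gtdc1 bin (14.2% and 14.6% to 19.1% and 19.3%, log2 0.41), in that of Map3k7, which encodes the TAK1 kinase upstream of NF-κB (15.96% and 16.1% to 21.1% and 21.01%, log2 0.39), and in that of Ston2 and Sel1l (log2 0.31). It fell in the bin of Pou5f1 to Ddr1 within the major histocompatibility region of chromosome 17 (24% and 24.5% to 18.3% and 19.02%, log2 −0.38), in that of Spen to Agmat (log2 −0.33) and in that of Cacna1b to Pnpla7 (log2 −0.30). At 33 h, between both groups it was higher at imminent division for Zfp988, Zfp978 and Zfp982 (log2 0.28), for a bin in the body of Caln1 (log2 0.31) and for Trappc12 and Eipr1 (log2 0.24). It was lower for Ddit4l and Gm21962 (17.9% and 17.5% against 23.8% and 24.1%, log2 −0.44) and for the gene-free bin of chromosome 2 (26.3% and 27.1% against 33.7% and 34.6%, log2 −0.35). All 24 bins passed without any single library and with the median change of all bins taken off.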

How the data were processed

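The authors mapped reads to mm10 through diffHic, cutadapt and bowtie2. Duplicates were marked, while dangling ends and overlong fragments were taken out. They deposited 1 matrix of unscaled, unbalanced counts for each library, in bins of 50 kb. Coordinates were rebuilt from MboI fragments of GRCm38 and counts summed to 250 kb. Read pairs carry no molecular identifiers. Standard errors of the edgeR and limma tests rest on the variation between replicate libraries of a group. In the chromosome fits that variation was pooled over chromosomes, in whole or in part. Genes came from GENCODE M21 (20807 autosomal protein-coding).

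Expected contact is the mean at each distance per chromosome. Measures per library were compared with the exact permutation test (one-sided for a large F over the groups). Chromosome and bin shares and bin pairs were tested with edgeR 4.0.16 (quasi-likelihood, all 8 libraries, one-way layout, R 4.3.3), chromosome slopes and compartment contact with limma 3.58.1. Bin pairs needed 10 read pairs and 4-fold the interchromosomal background, with loess offsets (pairs under 1.5 Mb fitted separately). The false discovery rate was held at 5% (Benjamini-Hochberg) over all features of a fit. Only the exact permutation test and the bin-pair fit were tried on simulated data. The simulated bin pairs held as many rises as falls, and do not speak for the dependence on offsets.

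Named pairs and bins are, per comparison and direction, the 3 with the smallest p whose groups do not overlap, at most 1 per chromosome and none from chromosome 18. Members, gene lists and rules were chosen with earlier results of these data known. Replicates are labelled by number only. Deviations of same-numbered libraries correlated between −0.148 and 0.0749, so the numbers were not taken as pairs.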

Additional observations from a re-analysis of the deposited data

Results flagged for a closer look

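The slope of B–B minus that of A–A pairs differed between the groups at 33 h. It was lower by 0.110 at imminent division than at pre-S (difference of group means −0.110), and lower on 19 of 19 chromosomes by limma. Mouse line and sort gate differ between these groups and cannot be told apart from them.

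Outside the autosomes, 3.74% of read ends of the second imminent division library lay on X, above the 2.39% to 2.84% of the other 7 libraries, and 0.0490% lay on Y, below their 0.0804% to 0.123%.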

How the results depend on the processing

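Of the 5 measures per library, the share passed with the cis pairs of different bins or all autosomal pairs as denominator and with 100 kb bins (adjusted exact permutation p 0.0476 each), the slope as the median of 19 chromosomes, from 2 to 5 Mb and from 5 to 10 Mb (0.0476 each), and A–A and A–B contact when balanced (0.0357 each). Balanced B–B contact turned direction (0.114). Without 1 library the adjusted p ranged from 0.0476 to 0.2 for the share, 0.0476 to 0.143 for the slope, 0.119 to 0.226 for A–A, 0.119 to 0.257 for B–B and 0.0794 to 0.352 for A–B contact.

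With the replicate number as a block the adjusted exact permutation p was 0.139 for the share, slope and A–A contact, 0.25 for B–B and A–B contact, 0.0556 for the A–A, A–B and B–B slopes and 0.0833 for their difference. The block gave 89, 28757, 16642 and 5002 bin pairs and 818, 4938, 3316 and 4711 bins in the order of the comparisons, 0 chromosomes for the share at pre-S and 1 for A–A contact at imminent division against 10 h. It changed no other call.

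Chromosome counts moved as follows. The share was called on 12 at imminent division and 1 at pre-S against 10 h over pairs of different bins, and on 9 at pre-S with interchromosomal density taken off. Balancing gave 1, 16 and 6 for A–A contact (10 h against 3 h, imminent division against 10 h and against pre-S), 12, 7 and 8 for B–B contact (imminent division and pre-S against 10 h, imminent division against pre-S) and 13 for the slope difference at pre-S against 10 h. Without 1 library the counts ranged, for the share, from 1 to 6, 0 to 13 and 6 to 19 in the last 3 comparisons, for the slope between the groups at 33 h from 3 to 12, for A–A contact from 0 to 13, 15 to 18 and 0 to 18, for B–B contact from 7 to 18 and 0 to 19 in the last 2, and for the slope difference from 8 to 18, 17 to 18, 8 to 9 and 19 to 19. DESeq2 1.42.0 called 275 bins at 10 h against 3 h and 2238 at pre-S against 10 h. Bins without 1 library ranged from 290 to 1085, 3776 to 5244, 2457 to 3691 and 3692 to 4827.

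For bin pairs at 10 h against 3 h, TMM factors gave 330, the cis total 300, bin coverage 711, DESeq2 21 and thinning to the shallowest library 31. At imminent division against 10 h DESeq2 gave 6753 and thinning 13075. At pre-S against 10 h bin coverage gave 11845, DESeq2 3681 and thinning 10064. Between the groups at 33 h the cis total gave 10754, bin coverage 16437, DESeq2 563 and thinning 1871. Without 1 library the ranges were 4 to 194, 10865 to 33081, 3731 to 20932 and 657 to 7474. Of the 24 named pairs none reversed (DESeq2 gave a value for 20), 1 was lost with bin coverage and 3 when thinned. The cause of these moves was not tested. Balancing of single chromosomes and the class slopes, with their alternatives, were added after seeing the data. Depth limits the number of bin pairs called, as the thinned counts show.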
